A study of Mus musculus with 2084 samples.

Results

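Levels of 5 genes were followed across cell types, brain regions, genotypes and days after ischemia in RNA of single neural stem cells (NSCs), their progeny and neighbouring glia from adult mice: Thbs4, Adamts18, Tshr, Gng2 and Gsn. They are 5 of 35606 gene identifiers in the count table. They were chosen from measured values, as genes higher in the cells labelled qNSC2, 1 of 2 labelled states of quiescent NSCs, in earlier results of these data. Levels across labelled types are therefore a description with no test. Sorts set by dissection and surface antigens, and times after ischemia, were tested. The name qNSC2 genes fitted Thbs4, Adamts18 and Tshr, whose level was highest in qNSC2 cells among the wild-type (WT) types. It did not describe Gsn, which was highest in oligodendrocytes, or Gng2, which was highest in neuroblasts.

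Quiescent NSCs of the ventricular-subventricular zone (vSVZ) lie along the lateral ventricles, resemble astrocytes, and can become active NSCs (aNSC), transit amplifying progenitors (TAP) and then neuroblasts, which migrate to the olfactory bulb. Thbs4 encodes thrombospondin 4, a secreted matrix protein known from vSVZ astrocytes, and Adamts18 a secreted metalloprotease of the ADAMTS family. Tshr encodes the thyrotropin receptor, which acts through G proteins and raises cyclic AMP. Gng2 encodes a gamma subunit of G proteins, which works as a dimer with a beta subunit. Gsn encodes gelsolin, which severs and caps actin filaments and is known as a gene of myelinating oligodendrocytes.

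WT mice had neither tamoxifen nor ischemia; their vSVZ cells came from replicates pA to pE, a few striatal cells from pE, and olfactory bulb cells from pF. TiCY mice, given tamoxifen at 2 months of age, switch on eYFP in cells that express Tlx, and were naive (pM) or were killed 2 d (pI) or 21 d (pH) after both carotid arteries had been occluded. Cells of IFN(A/G)R KO mice, which lack interferon receptors (KO), all came from letter pJ: naive ones with no TiCY background named, and 2 d ones from TiCY mice (TiCY-KO), so knockout and letter cannot be told apart. WT mice with a TCF-Lef reporter (pL) gave cortical and striatal cells. Each letter stands for 1 or more mice, pooled or single, and no gate on eYFP is named in the labels, so the cells of TiCY mice may include unrecombined ones. Of 2584 cells in the table, 1981 matched a label and were used, with a median of 160621 counts. The naive vSVZ and striatal GLAST sorts of pM and pJ held medians of 137876 to 168856 counts per cell, and the striatal 2 d sorts 404706 (pI) and 98844.5 (pJ). Counts were added up per type, or per sort, within each letter, and values are CPM (counts scaled to the total of that sum). In such sums fewer cells of a type and less RNA per cell cannot be told apart, and where 1 letter stands alone the interval is an exact 95% Poisson interval that covers counting error only.

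In the annotation used here (GENCODE M21 on GRCm38), Thbs4 (ENSMUSG00000021702) lies at chr13:92751590-92794818 on the minus strand and Adamts18 (ENSMUSG00000053399) at chr8:113697126-113848738 on the minus strand, with no overlapping gene in the table. Tshr (ENSMUSG00000020963, chr12:91384563-91549808, plus strand) shares its strand with Gm18827, and Gsn (ENSMUSG00000026879, chr2:35256380-35307892, plus strand) shares its strand with Gm43128. Gng2 (ENSMUSG00000043004, chr14:19872559-19977627, minus strand) overlaps Gm48283 on the other strand, so some reads of these 3 genes may have been assigned either way. RefSeq (GRCm38.p6) gave 1 start for Thbs4, Adamts18 and Gng2 and 3 for Gsn. The 250 bases before the single starts are shown because these genes differed in where they were high while 2 of them, Thbs4 and Adamts18, shared their highest type. Capitals mark a match to 1 of 5 motifs searched on both strands (RBPJ core TGGGAA, E-box CAGCTG, STAT TTCNNNGAA, AP-1 TGANTCA and the TATA box with the letters TATAAA; the motifs could overlap).
Thbs4: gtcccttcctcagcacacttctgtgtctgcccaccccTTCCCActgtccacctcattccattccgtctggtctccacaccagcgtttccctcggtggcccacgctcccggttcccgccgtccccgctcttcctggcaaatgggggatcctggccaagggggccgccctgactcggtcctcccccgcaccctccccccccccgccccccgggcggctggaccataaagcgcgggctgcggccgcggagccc
Adamts18: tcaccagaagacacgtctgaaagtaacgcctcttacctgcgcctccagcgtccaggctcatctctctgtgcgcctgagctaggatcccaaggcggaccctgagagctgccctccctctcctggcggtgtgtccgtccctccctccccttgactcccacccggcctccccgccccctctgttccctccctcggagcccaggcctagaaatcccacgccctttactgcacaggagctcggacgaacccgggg
Gng2: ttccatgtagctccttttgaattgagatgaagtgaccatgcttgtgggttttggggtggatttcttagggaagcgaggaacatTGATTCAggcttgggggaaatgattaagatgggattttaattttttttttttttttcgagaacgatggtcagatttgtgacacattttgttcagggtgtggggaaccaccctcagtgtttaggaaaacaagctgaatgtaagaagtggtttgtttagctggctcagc
The Thbs4 window (chr13:92794819-92795068, minus strand) was 70.8% G and C with 19 CpG pairs. It held 1 match, the RBPJ core read on the opposite strand (TTCCCA, 213 bases before the start at -213). Adamts18 (chr8:113848840-113849089, minus strand) was 65.2% G and C with 15 CpG pairs and held none of these letters. The Gng2 window (chr14:19976694-19976943, minus strand) was A and T rich, at 41.2% G and C with 3 CpG pairs, and held the AP-1 letters TGATTCA at -167. It stands before the RefSeq start but inside the gene as GENCODE places it. The Thbs4 and Adamts18 windows lie outside their genes, so the windows are not alike in position. Over 32851 RefSeq windows of this length the medians were 52.4% and 6 CpG pairs, so the Gng2 window lay below and those of both matrix genes above. The RBPJ core stood in 21.6% of these windows, the E-box in 13%, the STAT letters in 7.02%, the AP-1 letters in 6.75% and the TATA letters in 12.4%. For Gsn, the first start held an RBPJ core match and an E-box, the second an E-box and the third an RBPJ core match, and Tshr had no entry.

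Thbs4 was, per kilobase of exon, the most abundant of the 5 genes in WT qNSC2 cells and stepped down along the lineage. Means and ranges here are over sums of at least 3 cells. Sums of 2 WT aNSC cells are given beside them where they lay higher. In WT qNSC2 cells it stood at 736 CPM in pA, 408 in pB, 401 in pD and 602 in pE, with a mean of 537 ± 162 CPM (SD, n = 4). WT qNSC1 cells, the other labelled quiescent state, had 92.8 ± 67.0 CPM (n = 5, 24.5 to 185), aNSC 11.1 ± 1.94 (n = 3) and TAP 8.14 ± 9.89 (n = 3). The qNSC2 range lay above that of qNSC1, and the qNSC1 range above that of aNSC, whereas TAP (0.458 to 19.3) overlapped aNSC. The aNSC sums of 2 cells stood at 26.4 CPM in pA and 212 in pB, each from 1 cell, so with them aNSC overlapped qNSC1. In WT neuroblasts and oligodendrocytes Thbs4 was close to absent, with means of 0.0108 and 0.0120 CPM. The qNSC2 sums of pA and pB held 3 cells each, and without the cell with most Thbs4 counts in each sum the WT mean was 300.2 CPM.

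Adamts18 was also highest in WT qNSC2 cells but varied more between letters. It stood at 53.9 CPM in pA, 460.2 in pB, 73.0 in pD and 141 in pE (182 ± 189, n = 4). All 4 values lay above the qNSC1 range of 0 to 16.4 CPM (7.08 ± 8.49, n = 5). The single WT qNSC2 cell of pC, left out of these sums, had no Adamts18 count. In the remaining WT types no sum of at least 3 cells exceeded 5.44 CPM, and their ranges overlapped each other and that of qNSC1. The aNSC sums of 2 cells were higher, at 34.0 CPM in pA and 312 in pB, where both cells had a count, so aNSC then overlapped qNSC2. Without the top cell of each sum the qNSC2 mean was 174 CPM.

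Tshr, the receptor, was the least abundant of the 5 in WT qNSC2 cells, per kilobase of exon, and was uneven between cells. Its level was 68.3 CPM in pA, 150.1 in pB, 15.4 in pD and 42.1 in pE (69.0 ± 58.2, n = 4). All 4 letters lay above every other WT sum of at least 3 cells, of which aNSC reached 2.24 CPM at most. The 2 aNSC cells of pA stood at 24.6 CPM, from 1 cell, above the qNSC2 value of pD. TAP had no count (0 of 88 cells, the pB sum of 2 cells included, which allows up to 3.41% of cells with a count). A single cell gave 99.0% of the Tshr counts in pA, 96.1% in pB, 56.5% in pD and 51.0% in pE. Without those cells the WT qNSC2 mean was 11.1 CPM.

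Gng2 marked the late part of the lineage and, at a lower mean level, qNSC2. WT neuroblasts had 838 CPM in pA, 1105 in pB, 744 in pC and 163 in pD (712 ± 397, n = 4), and TAP had 174 ± 173 (n = 3, 66.8 to 374), which overlapped them. In WT qNSC2 cells it was 90.7 CPM in pA, 205 in pB, 14.4 in pD and 67.3 in pE (94.4 ± 80.5), overlapping both TAP and aNSC (44.97 ± 32.4, n = 3). The qNSC2 value of pB also lay above the neuroblast value of pD. The low types were qNSC1 (1.18 ± 0.748 CPM, n = 5) and oligodendrocytes (0.606 ± 0.112, n = 3). Without the top cell of each sum the qNSC2 mean was 32.1 CPM. The neuroblast marker Dcx was at 0 in the qNSC2 sum of pA, and the 10 summed neuroblast markers were at 150.0 to 379 CPM in the 4 WT qNSC2 sums; their part in the Gng2 level was not tested.

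Gsn, the actin regulator, was highest in WT oligodendrocytes, at 904 CPM in pA, 578 in pB and 918 in pC (800 ± 193, n = 3). WT qNSC2 cells came next, at 420 in pA, 119 in pB, 69.2 in pD and 194 in pE (200.4 ± 155), below every oligodendrocyte value. The single WT qNSC2 cell of pC, left out of these sums, was at 1334 CPM (1175 to 1508), above those oligodendrocyte values. WT qNSC1 cells (7.14 to 39.7 CPM) lay below every qNSC2 value, and overlapped neuroblasts (8.53 ± 6.10, n = 4) and TAP (4.84 ± 5.92). Gsn was nearly absent from the aNSC sums of at least 3 cells (0.249 ± 0.431 CPM, n = 3). The aNSC sums of 2 cells stood at 0 CPM in pA and 8.79 in pB, from 1 cell, the latter inside the qNSC1 range. Without the top cell of each sum the qNSC2 mean was 77.7 CPM. The oligodendrocyte markers summed to 138 to 225 CPM in WT qNSC2 cells, with Opalin, Gjb1 and Mal at 0 in pA, pB, pD and pE, and Mog at 0 in pB, pD and pE.

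Genes of unequal length are compared here only per kilobase of exon. On that scale the WT qNSC2 means were 163 CPM per kb for Thbs4, 63.5 for Gsn, 21.5 for Gng2, 17.9 for Adamts18 and 11.47 for Tshr. The Gsn level of oligodendrocytes (253 CPM per kb) and the Gng2 level of neuroblasts (162) were of the size of Thbs4 in qNSC2.

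In the 3 larger sums of qNSC2 cells from the other mice, Thbs4 lay within or above the WT range, and Gsn and Adamts18 differed most. Thbs4 was at 823 CPM in naive TiCY (39 cells), 657 in naive KO (31 cells) and 707 in TiCY-KO cells 2 d after ischemia (67 cells). Adamts18 was at 346 CPM (95% Poisson interval 331 to 362) in naive TiCY, 515 (495 to 535) in naive KO and 33.4 (29.8 to 37.2) in 2 d TiCY-KO. Gsn was at 47.8 CPM (42.4 to 53.8), 57.5 (51.0 to 64.6) and 756 (739 to 774) in the same order.
The 2 d TiCY-KO cells thus lay above both naive sums for Gsn and below both for Adamts18, while Thbs4 lay between them. With each cell thinned to 50000 counts, Adamts18 had a count in 21 of 30 naive KO cells (70.0%, exact binomial interval 50.6% to 85.3%) and 9 of 52 at 2 d (17.3%, 8.23% to 30.3%), against 67.7% and 14.9% without thinning. For Gsn the thinned shares were 15 of 30 (50.0%, 31.3% to 68.7%) and 40 of 52 (76.9%, 63.2% to 87.5%), and the unthinned ones 54.8% and 74.6%. These are single letters, so the differences have no replicate check, and the naive KO and 2 d TiCY-KO mice also differ in background. The summed markers of ependymal cells, which line the ventricle beside these cells, were at 384 CPM in naive KO, 281 in naive TiCY and 635.5 in 2 d TiCY-KO, with Tmem212 at 0 in all 3; their part was not tested.
Tshr was at 132 CPM in naive TiCY, 97.7 in naive KO and 68.4 in 2 d TiCY-KO qNSC2 cells, but its thinned share ran the other way, from 8 of 30 naive KO cells (26.7%, 12.3% to 45.9%) to 23 of 52 (44.2%, 30.5% to 58.7%), so no order was read. Gng2 was low throughout, at 35.2, 24.8 and 23.2 CPM. Only 5 TiCY cells at 2 d were labelled qNSC2, while 171 vSVZ cells of that arm carried the joint label astrocytes and NSC lineage cells. The 5 cells had Thbs4 at 51.2 CPM (41.2 to 62.9), Gsn at 86.5 (73.3 to 101) and no Tshr count.

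Among astrocytes of the vSVZ, Thbs4 was present in every arm, at 112 CPM in naive TiCY (114 cells), 90.5 in naive KO (79 cells) and 136 in 2 d TiCY-KO (36 cells). Gsn was at 16.2 CPM (14.3 to 18.2) and 16.7 (14.4 to 19.2) in the naive sums and at 302 (288 to 317) in 2 d TiCY-KO, where 1 cell gave 42.2% of its counts and 22 of 36 cells had one. Tshr did not exceed 3.69 CPM there, and Adamts18 did not exceed 15.9.
Striatal astrocytes had little Thbs4, with 2.67 CPM in naive TiCY (131 cells), 36.3 in naive KO (35 cells) and 10.7 in 2 d TiCY-KO (82 cells). Their Gsn was at 7.77 CPM (6.47 to 9.25), 23.7 (19.4 to 28.8) and 152 (144 to 161) in the same order, and 51 of the 82 2 d cells had a count. The 2 d level lay above both naive ones for Gsn and between them for Thbs4.
The neurogenic striatal astrocytes of 2 d TiCY-KO mice (27 cells) held all 5 genes: Thbs4 at 139.5 CPM, Gsn at 147, Gng2 at 82.0, Tshr at 15.9 and Adamts18 at 14.4. The 6 such cells of TiCY mice at 2 d had counts of Gng2 (9.24 CPM, from 1 cell) and Tshr (33.0 CPM, 98.7% from 1 cell) only.

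The 5 genes met in single cells mainly in qNSC2, which follows in part from how they were chosen. With cells thinned to 50000 counts, 2 or more of the 5 genes had a count in 14 of 33 WT qNSC2 cells of pD (42.4%, exact binomial interval 25.5% to 60.8%). The share was 28 of 38 in naive TiCY (73.7%, 56.9% to 86.6%), 26 of 30 in naive KO (86.7%, 69.3% to 96.2%) and 41 of 52 in 2 d TiCY-KO (78.9%, 65.3% to 88.9%). It was 9 of 9 in pE, 3 of 3 in pB and 2 of 3 in pA. The WT replicate pD thus held a smaller share of such cells than the others, and its cells also had the lowest median depth of the WT qNSC2 sums before thinning (119354 counts). All 5 genes had a count in 1 cell each of pB, naive TiCY, naive KO and 2 d TiCY-KO.
In the other WT types the share with 2 or more genes ran from 3.92% to 20.0% over 5 qNSC1 sums (2 of 51 cells of pD, 4 of 20 of pE), from 1.79% to 66.7% in aNSC (1 of 56 of pD, 2 of 3 of pE) and from 8.48% to 33.3% in TAP (5 of 59 of pD, 1 of 3 of pE). It ran from 0% to 20.0% over 4 neuroblast sums and from 0% to 8.33% over 3 oligodendrocyte sums. Naive TiCY TAP reached 4 of 8. Without thinning, qNSC1 reached 75.0% in pE and oligodendrocytes 70.8% in pB, and WT qNSC2 ran from 47.1% to 100.0%. Among vSVZ astrocytes the shares were 5.51% in naive TiCY, 8.96% in naive KO and 27.6% (8 of 29, 12.7% to 47.2%) in 2 d TiCY-KO. No naive TiCY striatal astrocyte held 2 (0 of 106 cells), while 11 of 24 neurogenic striatal astrocytes of 2 d TiCY-KO did (45.8%, 25.5% to 67.2%). Of the other striatal astrocytes, 1 of 29 did in naive KO, 2 of 61 in 2 d TiCY-KO and 1 of 33 in WT TCF-Lef. In WT striatal astrocytes of pE the share was 2 of 12 (16.7%, 2.09% to 48.4%), and 5 of 12 (41.7%) without thinning.
Within qNSC2, most pairs of the 5 genes met somewhat more often than the product of their shares. Of 10 pairs, 8 lay above it in WT, 7 in naive TiCY, 6 in naive KO and 10 in 2 d TiCY-KO, by 1.56 times at most. In 49 WT cells Thbs4 and Gsn met in 17, against 11.8 from that product, and Gsn and Tshr in 8 against 5.14; these cells mix letters of unequal level. Outside WT, Thbs4 and Adamts18 were among the closest to the product. They met in 15 of 38 naive TiCY cells against 15.8 and in 17 of 30 naive KO cells against 16.8. In 2 d TiCY-KO they met in 7 of 52 cells against 6.92, and in WT in 14 of 49 against 11.8. Thbs4 and Gsn met in 34 of 52 2 d TiCY-KO cells against 30.8.

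**Figure D1:**
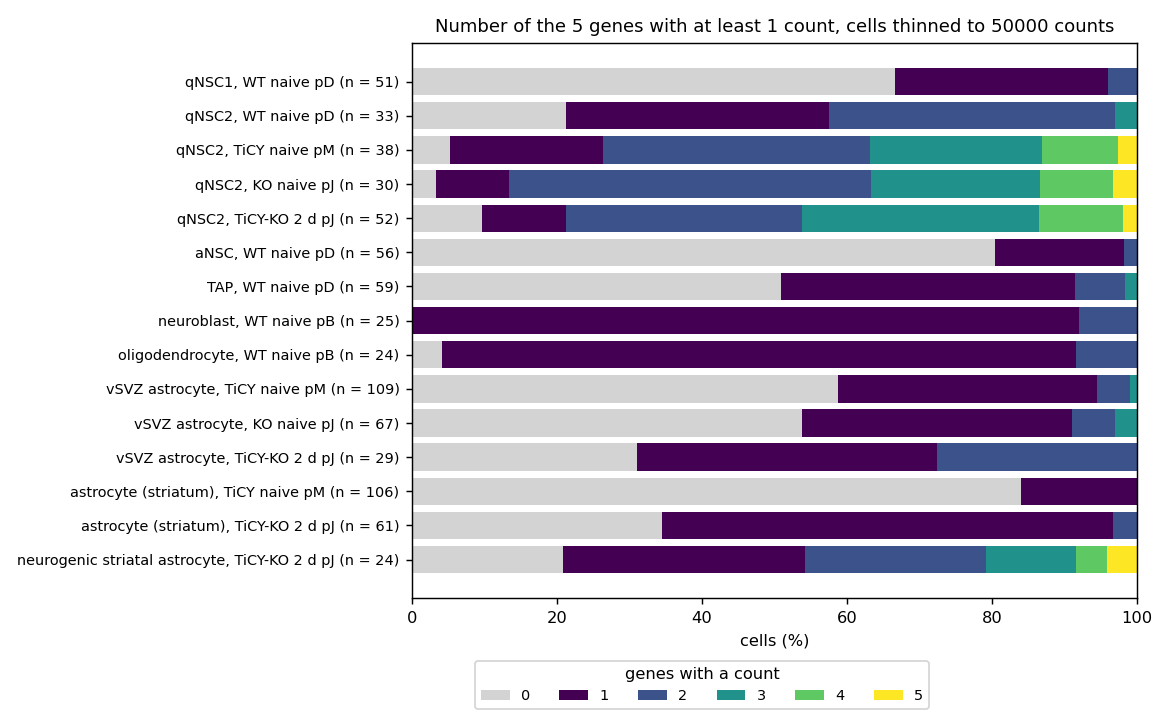
Share of cells (x axis, percent) that hold a count of 0 to 5 of the 5 genes (colours), for labelled types in single letters (y axis, with the number of cells), after thinning each cell to 50000 counts. The TiCY and KO qNSC2 bars and the neurogenic striatal astrocytes hold the largest shares with 3 or more genes among the bars shown; neuroblasts and oligodendrocytes mostly hold 1 gene.

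The sorts of cells that carry the astrocyte and NSC antigen GLAST were tested first by region, vSVZ against striatum, over the same 5 arms. Adamts18 was at 78.2 CPM in naive TiCY, 158 in naive KO, 11.3 in 2 d TiCY, 10.7 in 2 d TiCY-KO and 62.4 in 21 d TiCY in the vSVZ. In the striatum it was at 1.49, 0.228, 1.86, 3.63 and 0.153 CPM in that order. The regions did not overlap for Adamts18, which was higher in the vSVZ in 5 of 5 arms.
Of 18076 genes, edgeR's quasi-likelihood test called none between the regions (0% at an adjusted p under 0.05; 2203 genes had an unadjusted p under 0.05, DESeq2 called 405, and edgeR with the arm as a replicate block called 680). Adamts18 was higher in the vSVZ by 5.35 ± 0.98 on the log2 scale (SE, edgeR adjusted p = 0.125), and by 5.02 with the arm as a replicate block (edgeR adjusted p = 0.0307). That choice of genes partly fixes the direction, since qNSC2 cells are labelled in the vSVZ. Without cells labelled qNSC2 the Adamts18 difference was 3.95 (edgeR adjusted p = 0.274). Most vSVZ cells of 2 d and 21 d TiCY carry the joint label astrocytes and NSC lineage cells (171 and 154 cells, beside 5 and 1 labelled qNSC2). That label may include qNSC2 cells, which were then not left out.
Thbs4 was higher in the vSVZ in 4 of 5 arms (1.28 ± 0.74, edgeR adjusted p = 0.49), Gsn in 5 of 5 (0.95 ± 0.86, p = 0.684), Gng2 in 5 of 5 (1.92 ± 0.99, p = 0.443) and Tshr in 3 of 5 (0.68 ± 0.95, p = 0.811). None of these 4 differences passed the test, with or without the block.

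At 2 d after ischemia, against naive, Gsn rose and Adamts18 fell in the vSVZ GLAST sorts. Gsn was at 20.8 CPM in naive TiCY and 28.0 in naive KO, and at 161 in 2 d TiCY and 276 in 2 d TiCY-KO, with 41.3 in the single 21 d arm. Adamts18 was at 78.2 and 158 CPM in the naive arms and at 11.3 and 10.7 at 2 d, with 62.4 at 21 d. For both genes the naive and the 2 d arms did not overlap, and the 21 d arm lay between them for Gsn and just below the lower naive arm for Adamts18.
In 1 edgeR fit of all 10 sums with a term for genotype, the change was 3.04 ± 0.55 for Gsn (log2, SE; edgeR adjusted p = 0.0105) and -3.47 ± 0.77 for Adamts18 (edgeR adjusted p = 0.0322), in 2 of 2 arms each. The test called 374 of 26196 genes (1.43%), 84 higher (0.321%) and 290 lower (1.11%). Gsn lost its call without naive KO (2.89) or naive TiCY (3.23). Adamts18 lost it without naive KO (-3.05), naive TiCY (-3.73) or the 21 d arm (-3.48, edgeR adjusted p = 0.0664). Fits without a naive arm leave 1 naive vSVZ sum, so no p is given for them.
Cells with a count of the neuroblast gene Dcx made up 20 of 188 and 14 of 134 naive vSVZ cells, and 123 of 176 and 87 of 228 at 2 d. Without them, a comparison chosen after seeing the data, Gsn changed by 4.09 (edgeR adjusted p = 0.00219) and Adamts18 by -2.56 (p = 0.133). Cells with a count of the oligodendrocyte genes Mog, Mag, Mobp or Ermn held 5.73% and 6.84% of naive Gsn counts and 18.5% and 7.52% at 2 d, and without those cells Gsn changed by 3.23 (p = 0.00652).
Thbs4 stood at 255 and 214 CPM in the naive vSVZ arms and at 212 and 224 at 2 d, so its values overlapped (-0.19 ± 0.81, edgeR adjusted p = 0.968). Tshr stood at 27.7 and 25.7 CPM against 19.1 and 20.6 (-0.47 ± 0.87, edgeR adjusted p = 0.882). Gng2 stood at 41.1 and 29.8 CPM against 124 and 77.1, which did not overlap but missed the threshold (1.41 ± 0.67, edgeR adjusted p = 0.412). Of the Gng2 counts, 96.3% in 2 d TiCY and 87.6% in 2 d TiCY-KO lay in Dcx-positive cells, against 78.6% and 63.9% in the naive arms.

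In the striatal GLAST sorts Gsn, Gng2 and Tshr rose at 2 d. Gsn was at 7.77 and 23.7 CPM in the naive arms (TiCY, then KO) and at 74.9 and 145 at 2 d (TiCY, then TiCY-KO). Gng2 was at 0.621 and 0 CPM in the naive arms and at 11.7 and 20.7 at 2 d. Tshr was at 0.311 CPM (5 counts) and 0.457 (2 counts) in the naive arms and at 31.7 and 4.47 at 2 d. A single cell gave 39.5% of the Tshr counts in 2 d TiCY, where 34 of 122 cells had one. In 2 d TiCY-KO a single cell gave 52.1% of 48 Tshr counts, and 7 of 114 cells had one.
For all 3 genes both 2 d arms lay above both naive arms, and the 2 d arms differed most for Tshr. The test called 584 of 26196 genes in the striatum (2.23%), 524 higher (2.00%) and 60 lower (0.229%), and the median change over all genes was 0.51. Gsn changed by 2.88 ± 0.55 (edgeR adjusted p = 0.00793), Gng2 by 5.36 ± 0.88 (p = 0.00242) and Tshr by 5.50 ± 1.18 (p = 0.0161), in 2 of 2 arms each.
Gsn lost its call without naive TiCY (2.46). Tshr lost it without 2 d TiCY (3.41) or naive TiCY (4.14), and Gng2 kept it without any single arm. Fits without a naive or a 2 d arm leave 1 striatal sum of that time, so no p is given. Dcx-positive cells numbered 1 of 131 and 0 of 35 in the naive arms and 7 of 122 and 13 of 114 at 2 d; they held 65.7% and 83.3% of the 2 d Gng2 counts, and without them Gng2 changed by 3.49 (p = 0.331). The summed neuroblast markers rose with it, from 132 and 146 CPM to 530.2 and 953, and 7 of the 10 were called higher. In the vSVZ they went from 1101 and 858 CPM to 5942 and 2918, with 3 of 10 called higher.
Gfap, the intermediate filament gene of reactive astrocytes, was called higher in both regions, by 4.22 in the vSVZ (edgeR adjusted p = 0.00408) and 5.33 in the striatum (p = 0.000149). The oligodendrocyte markers summed to 52.0 and 129 CPM in the naive striatal arms and 80.0 and 107 at 2 d, and without cells with a count of Mog, Mag, Mobp or Ermn Gsn changed by 2.84 (edgeR adjusted p = 0.00847).
Thbs4 stood at 2.67 and 36.3 CPM in the naive striatal arms and at 223 and 41.8 at 2 d, a change of 2.95 ± 1.00 that missed the threshold (edgeR adjusted p = 0.151; DESeq2 adjusted p = 0.0394). A single cell gave 59.97% of the 2 d TiCY counts. Single arms decided this value. Without naive KO it was 5.82 and without 2 d TiCY-KO 4.90, but without 2 d TiCY 0.81 and without naive TiCY 0.88. Each of these fits leaves 1 naive or 1 2 d striatal sum, so no p is given. Adamts18 was at 1.49 and 0.228 CPM against 1.86 and 3.63 (1.31 ± 0.80, edgeR adjusted p = 0.506).

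The difference between the 2 regions' changes depended on whether the regions of an arm were paired. In the unpaired fit edgeR called 25 of 26196 genes (0.0954%), all of them lower in the vSVZ, and none of the 5. The difference (vSVZ minus striatum) was -4.78 ± 1.11 for Adamts18 (edgeR adjusted p = 0.147), -5.97 ± 1.46 for Tshr (p = 0.182) and -3.95 ± 1.08 for Gng2 (p = 0.279). For Gsn it was 0.16 ± 0.73 (p = 1) and for Thbs4 -3.13 ± 1.30 (p = 0.753). Apart from Gsn all had an unadjusted p under 0.05 (4 of 5 genes), and DESeq2 called Adamts18, Tshr and Gng2. With the arm as a replicate block, chosen after seeing the data, edgeR called 175 genes, 2 higher and 173 lower, and the difference passed for Adamts18 (-4.86, edgeR adjusted p = 0.00282), Thbs4 (-3.40, p = 0.00479), Gng2 (-4.06, p = 0.0289) and Tshr (-5.50, p = 0.0332), with Gsn at 0.15 (p = 1). In the unpaired fit, leaving out single arms moved the Thbs4 difference from -5.33 (without naive KO) to -1.40 (without naive TiCY). It was -4.58 without 2 d TiCY-KO and -1.95 without 2 d TiCY. Each of these fits leaves 1 naive or 1 2 d sum per region, so no p is given. Over the alternative settings Adamts18 ran from -7.32 to -3.55, Gng2 from -9.91 to -3.13 and Tshr from -8.84 to -3.865.
The 21 d arm is a single letter, so it has no test. In the striatum at 21 d Tshr was at 29.2 CPM (26.4 to 32.3), Gng2 at 47.2 (43.5 to 51.0) and Thbs4 at 98.4 (93.1 to 104), all above both naive arms. Striatal Gsn at 21 d was at 8.36 CPM (6.86 to 10.1), inside the naive range. All 615 Gng2 counts there lay in Dcx-positive cells (100.0%, 6 cells).

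**Figure D2:**
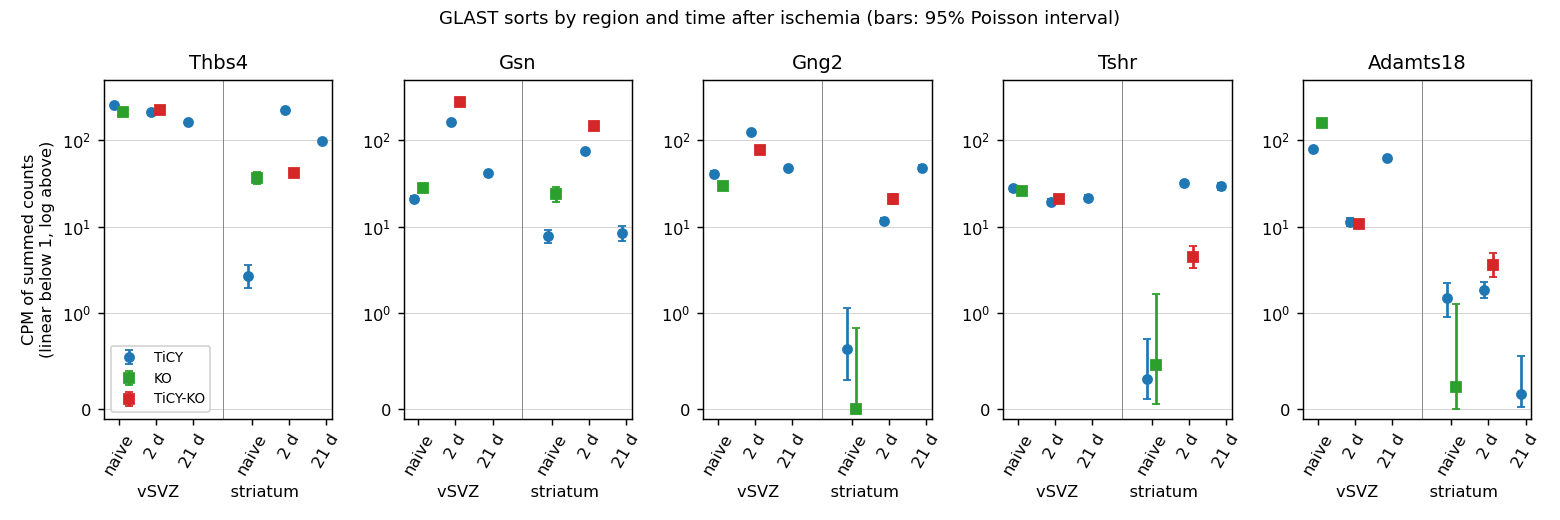
CPM of each gene in the GLAST sorts (y axis, linear below 1 and logarithmic above) by region and time after ischemia (x axis), 1 point per arm, with 95% Poisson intervals of the sum. Gsn rises at 2 d in both regions (161 and 276 CPM in the vSVZ, 74.9 and 145 in the striatum), Adamts18 falls in the vSVZ, and Tshr and Gng2 rise from near 0 in the striatum.

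WT surface sorts of pA, pB and pC gave a replicated comparison of groups set by surface antigens. They hold 7 of the labelled qNSC2 cells, so the choice of the genes partly fixes a direction against NB and OLIGO. Without those cells, a comparison chosen after seeing the data, the Thbs4 calls stayed (NB -8.71, edgeR adjusted p = 0.0093; OLIGO -12.85, p = 0.00636). So did the edgeR calls in NB of Gng2 (7.30, adjusted p = 0.000597) and Gsn (-4.18, p = 0.0166), while Gng2 in OLIGO lost its call (-3.06, p = 0.0571) and Tshr failed the filter on low counts. Values here are CPM scaled by edgeR's TMM factors. In the NSC sort Thbs4 was at 298 (pA), 80.7 (pB) and 236 (pC), and in the neuroblast (NB) sort at 0, 0 and 1.12. In the oligodendrocyte (OLIGO) sort all 3 letters were at 0.
Thbs4 thus separated the NSC sort from both, with no overlap. Against the NSC sort it was lower in NB by -9.77 ± 1.76 on the log2 scale (edgeR adjusted p = 0.00562), and in OLIGO it was called lower (p = 0.00408) and was at least 432-fold lower, with a floor of 3 counts per library (0.474 CPM). The NB test called 1690 of 14348 genes (11.8%; 3.62% higher, 8.16% lower; 2681 with the letter as a replicate block), and the OLIGO test 875 (6.10%; 0.237% higher, 5.86% lower). The NB call was lost without pA or pB and the OLIGO call without pA.
Gng2 was at 24.4, 6.79 and 7.82 in the NSC sort, at 759, 1030 and 699 in NB, and at 0.690, 0.445 and 0.824 in OLIGO. The 3 sorts did not overlap. The difference from NSC was 5.99 ± 0.80 for NB (edgeR adjusted p = 0.000711) and -4.37 ± 0.80 for OLIGO (p = 0.00516), and the OLIGO call was lost without any 1 of the 3 letters.
Gsn was at 218, 382 and 126 in the NSC sort, at 14.6, 9.11 and 6.30 in NB, and at 1121, 628 and 1058 in OLIGO. It was lower in NB by -4.59 ± 0.73 (edgeR adjusted p = 0.00175), a call lost without pB. The OLIGO values lay above every NSC value, but the difference of 1.95 ± 0.65 missed the threshold (edgeR adjusted p = 0.112), and passed it with the letter as a replicate block (2.11, p = 0.0364). The NSC sort itself held labelled oligodendrocytes, 1 of 9 cells in pA and 7 of 15 in pB, and its oligodendrocyte markers summed to 10260, 47430 and 180 CPM; their part in the Gsn values was not tested.
Tshr was at 17.6, 0.316 and 12.6 in the NSC sort and did not exceed 0.549 in any NB or OLIGO library. Its values of pB overlapped OLIGO, and neither difference passed (NB -6.18 ± 1.88, edgeR adjusted p = 0.0513; OLIGO -5.80 ± 1.88, p = 0.104). Adamts18 did not pass the filter on low counts in these sorts, so 4 of the 5 genes were tested. Cells labelled qNSC1 were 7 of 9 in the NSC sort of pA, 7 of 15 in pB and 13 of 17 in pC. The NSC sort of pC held 1 cell labelled qNSC2, with 29 counts of Tshr, 255 of Gsn and 385 of Thbs4. That sum had 2258331 counts in all, so its Tshr, Gsn and Thbs4 values came mostly from 1 cell.
The sort labelled ASTRO held no cell labelled astrocyte: it was 6 qNSC1, 2 qNSC2, 2 aNSC and 1 neuroblast in pA, 4 qNSC1, 3 qNSC2, 4 neuroblasts, 2 aNSC and 1 TAP in pB, and 7 TAP, 7 aNSC, 5 neuroblasts and 4 qNSC1 in pC.
Between the ASTRO and NSC sorts 13 of 14348 genes were called by edgeR (0.0906%) and none of the 4; 2 of the 4, Gsn and Gng2, had an unadjusted p under 0.05 and were called by DESeq2. Gsn was lower in ASTRO, at 41.2, 26.7 and 7.85, with no overlap (-3.26 ± 0.68, edgeR adjusted p = 0.0898; with the letter as a replicate block -3.37, p = 0.0441). Gng2 was higher, at 72.4, 412 and 241 (4.21 ± 0.74, edgeR adjusted p = 0.0654; without qNSC2 cells 5.68, p = 0.0285), and the neuroblast markers of the ASTRO sort summed to 754, 4122 and 4601 CPM. Thbs4 (124, 99.8 and 12.5) and Tshr (5.54, 24.9 and 0.812) overlapped the NSC sort.

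**Figure D3:**
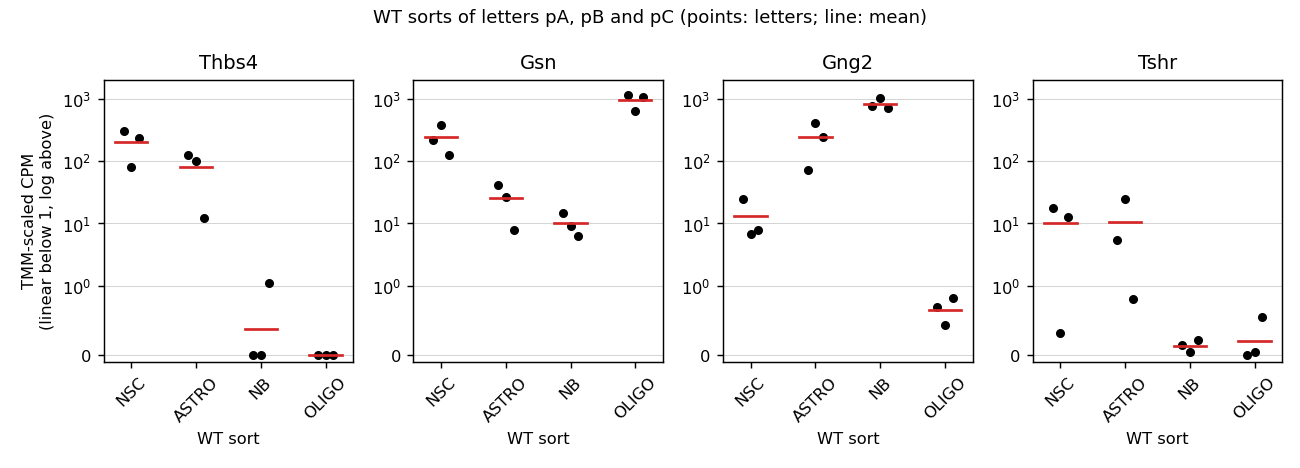
TMM-scaled CPM (y axis, linear below 1 and logarithmic above) of Thbs4, Gsn, Gng2 and Tshr in the 4 WT surface sorts (x axis); points are letters pA, pB and pC and the line is their mean. Thbs4 is at 0 in all 3 OLIGO libraries, Gsn is highest in OLIGO and Gng2 highest in NB, at 699 to 1030 CPM.

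The genes whose level ran most like that of each of the 5 were taken over 22 WT sums of a type in a letter, by Pearson's r of log2(CPM + 1), and read again over 21 sums of the naive and 2 d mice of pM and pJ. Sums of a letter share libraries and depth, so no p is given. Thbs4 ran most like Gfap (r = 0.94 and then 0.527), Pamr1 (0.924 and 0.704) and Scara3 (0.922 and 0.792). Gng2 ran like Bcl11a, a transcription factor gene of neurons (0.927 and 0.938), Tmem131l (0.897 and 0.896) and Minar2 (0.894 and 0.693). Of the nearest genes of all 5, Bcl11a and Tmem131l, both nearest to Gng2, had the highest r in the second set.
Gsn ran like Rcan2 (0.878 and 0.603), Enpp2, which encodes autotaxin (0.852 and 0.437), and Dgki (0.841 and 0.389). Tshr ran like Ccdc170 (0.902 and 0.6), Egln3, an oxygen-sensing prolyl hydroxylase gene (0.883 and 0.566), and Tmem232 (0.881 and 0.187). Adamts18 ran like Cfap46, a gene of motile cilia (0.878 and 0.487), AC151284.1 (0.872 and -0.2) and Tshr itself (0.866 and 0.532).

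Lists of genes around the 5 were counted in the same tests. Named here are the 4 genes of each list with the highest CPM in WT qNSC2 cells, with their mean CPM per kb of exon, on which scale other genes of a list can stand higher. Of the matrix and thrombospondin receptor list these were Calr (149 CPM per kb), Notch2 (41.5), Notch1 (32.8) and Lrp1 (23.8), a receptor that takes up thrombospondins. Of the ADAMTS list they were the inhibitors Timp3 (117) and Timp2 (17.7), Adamts10 (5.67) and Adamts9 (1.29). Around the thyrotropin receptor they were Gnas (43.8), which encodes the stimulatory alpha subunit, Gnaq (34.7), Arrb1 (23.4) and Creb1 (13.8), and for thyroid hormone Crym (112), Slco1c1 (64.7), Thra (60.1) and Dio2 (47.1). The other G protein subunits were Gnb1 (50.8), Gng5 (49.0), Gng12 (48.4) and Gnb2 (19.2), beside 21.5 for Gng2 itself, and the actin genes Actb (619), Actg1 (333), Pfn2 (50.7) and Capza2 (33.2).
At 2 d in the striatum, 2.00% of all genes were called higher and 0.229% lower. There 1 of 20 tested thrombospondin and receptor genes rose, Itga5, a subunit of the fibronectin receptor (5.14, edgeR adjusted p = 0.0197). Of 22 actin genes, 2 rose, the actin-binding thymosins Tmsb4x (3.09, p = 0.00887) and Tmsb10 (4.999, p = 0.000196). Of 16 hormone receptor signalling genes 1 fell, Lhcgr, a relative of Tshr (-3.47, p = 0.0425), and 1 of 22 ADAMTS genes rose, Adamts4 (p = 0.0314), from 0 CPM in both naive arms to 10.2 and 2.05. None of 14 G protein subunits and none of 13 thyroid hormone genes was called by edgeR; 2 and 4 of them had an unadjusted p under 0.05, and DESeq2 called 2 and 1. The median change was 0.12 for the thrombospondin list, 0.54 for actin, 0.12 for G protein subunits, -0.03 for hormone receptor signalling, -0.23 for thyroid hormone and 0.85 for ADAMTS, beside the 0.51 of all genes.
At 2 d in the vSVZ, 0.321% of all genes were called higher and 1.11% lower. The calls there were Tmsb10 (2.50, edgeR adjusted p = 0.0328) of 22 actin genes and Adcy2, an adenylyl cyclase (-2.23, p = 0.0333), of 16 hormone receptor signalling genes. Of 13 thyroid hormone genes the call was Crym, a thyroid hormone binding protein (-2.67, edgeR adjusted p = 0.0264). The thrombospondin, G protein and ADAMTS lists had none by edgeR, 10, 3 and 7 genes at an unadjusted p under 0.05, and 4, 2 and 5 calls by DESeq2. Medians of the 6 lists, in the order given for the striatum, were -1.17, 0.15, -0.10, -0.02, -1.45 and 0.76, beside 0.11 over all genes. The astrocyte markers moved the same way as Crym and Adcy2, with 6 of 15 called lower, and their part was not tested.
In the NB sort against NSC, where 8.16% of all genes were called lower and 3.62% higher, 4 of 15 tested thrombospondin and receptor genes were lower and none higher, Notch2 (-3.85, edgeR adjusted p = 0.0223), Itgav, Stim1 and Sdc4. Of 13 G protein subunits Gng3, a neuronal gamma subunit, was higher (6.11, p = 0.00108) and Gng7 lower (-3.38, p = 0.0174), so Gng2 was not the only gamma subunit gene called. Of 20 actin genes Pfn2 (2.47, p = 0.00931) and Tmsb10 were higher. At the same time 4 of 9 thyroid hormone genes (Dio2, Slco1c1, Crym and Klf9), 3 of 14 hormone receptor signalling genes (Lgr4, Adcy2 and Arrb1) and 4 of 17 ADAMTS genes (Adamts6, Adamts20, Timp3 and Timp4) were lower, and Adamts7 was higher. Astrocyte markers (15 of 15) and quiescent NSC markers (15 of 18) were also called lower; their part was not tested. List medians in the same order were -1.82, 0.40, 0.07, 0.02, -2.74 and -1.42, beside -0.02 over all genes.
In the OLIGO sort against NSC, 0.237% of all genes were called higher and 5.86% lower, and no gene of the 6 lists was called higher. The lower ones were 6 of 15 thrombospondin and receptor genes (Cacna2d2, Itga6, Lrp1, Sdc4, Notch1 and Notch2), Cap2 of 20 actin genes, Adcy2 and Arrb1 of 14, Dio2, Slco1c1, Thrb and Crym of 9, and Adamts9, Adamts10, Timp3 and Timp4 of 17. No G protein subunit was called by edgeR or DESeq2, and 0 of 13 had an unadjusted p under 0.05. List medians were -0.06, 0.38, 0.44, -0.86, -3.63 and -1.07, beside -0.09 over all genes. Between the ASTRO and NSC sorts, and between the regions, edgeR called no gene of the 6 lists. For ASTRO the genes with an unadjusted p under 0.05 numbered 1, 2, 3, 2, 0 and 7 in the order of the lists, and DESeq2 called 0, 2, 2, 1, 0 and 4. For the regions they numbered 3, 2, 2, 2, 1 and 3, and DESeq2 called 2, 0, 1, 1, 1 and 1.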

How the data were processed

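Libraries of single cells were made by Smart-seq3, per the labels. The submitters' processing notes name STAR, featureCounts and GRCm38 (mm10), and the authors deposited raw counts for each gene and cell. Tool versions, cell filters and any collapsing of molecules by their identifiers: not given in the sources used here. Cells came from the labels; 603 cells of the table matched none and were not used. No doublet caller was run. The 5 genes, the lists and the tests were chosen with earlier results of these data known.

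Within each letter, counts of at least 3 cells that shared a type or sort were added up and scaled to CPM. The sums were tested with edgeR 4.0.16 in R 4.3.3 (filterByExpr, TMM, quasi-likelihood F test, Benjamini-Hochberg at 0.05), with limma 3.58.1 and, as an alternative, DESeq2 1.42.0. All p-values are two-sided and measure the spread between letters or arms, which may be technical. In edgeR the spread of each gene is also drawn toward that of other genes. The 2 d tests and that of the regions' difference had 3 residual degrees of freedom, beside 16.0 drawn from other genes. These were 8 and 5.45 for the test between regions, and 8 and 4.57 for the sorts. The GLAST fit had 10 sums and the WT sort fit 12. The test of the difference between the regions' changes, its replicate block, and the sorts without qNSC2 cells were added after seeing the data. For detection, cells were thinned to 50000 counts and shallower ones left out; intervals are exact at 95%, and a count of 0 is given the limit of 3 over the number of cells. Python 3.11.15 with numpy 2.4.6, scipy 1.17.1, pandas 2.3.3 and matplotlib 3.10.9 did the rest. The tests across genes were tested on simulated data. WT letters and the others were set side by side only, with no test between them.

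Named were the 5 genes, for each the 3 genes most like it among those that pass filterByExpr, and of each list the 4 with the highest WT qNSC2 mean and any called. Sums of 1 arm or letter deviated together: the correlation of deviations was 0.203 to 0.460 over 5 pairs of GLAST sorts and 0.148 to 0.485 over 18 pairs of WT sorts, against medians of -0.0507 and -0.233 for different ones. The pairing comes from the arm or letter in the labels. Alternatives were DESeq2, another scaling, no filter, the replicate block, thinning, leaving out each letter, and leaving out single cells or cells with marker genes.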

Additional observations from a re-analysis of the deposited data

Results flagged for a closer look

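Of 25 groups of 4 to 10 sums examined, 1 held a sum far from the others, where chance gives about 1 in 20 groups. Thbs4 in WT neuroblasts was at 0.0433 CPM in pB, from 1 count, and at 0 in the other 3 letters.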

How the results depend on the processing

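The number of genes called depended on the setting more than the direction of the 5 genes did. At 2 d in the striatum (584 calls) DESeq2 gave 2328, no filter 1308, leaving out Dcx-positive cells 285, and leaving out a replicate 306 to 2955. At 2 d in the vSVZ (374) these were 1689, 895, 176 and 61 to 1920, and for the difference between the regions (25) 236, 262, 4 and 13 to 951, with 2 when cells were thinned and 175 with the replicate block. For ASTRO against NSC (13) DESeq2 gave 466, no filter 102, the replicate block 39 and leaving out a replicate 0 to 73. For NB (1690) DESeq2 gave 2978, the block 2681 and leaving out a replicate 369 to 1335; for OLIGO (875) DESeq2 gave 1884 and leaving out a replicate 273 to 487. For vSVZ against striatum (0) DESeq2 gave 405 and the block 680. The Thbs4 level in WT qNSC2 was 300.2 CPM without the top cells. Over the settings of the 5 genes in tests, 277 values kept direction and side of the threshold, 35 gained a call, 18 lost one and 12 turned direction, all 12 of values that had missed the threshold. Thbs4 at 2 d in the vSVZ turned to 0.050 when thinned, 0.32 without 2 d TiCY-KO and 0.78 without Dcx-positive cells, and ran from -1.14 to 0.49 over the left-out replicates. Tshr there turned to 0.32 without Dcx-positive cells and ran from -0.95 to 0.37. Tshr in ASTRO against NSC turned to -0.013 with DESeq2, -0.011 with another scaling, and ran from -2.20 to 1.04. Between regions Tshr turned to -0.63 without cells labelled qNSC2. The Gsn difference between regions turned to -0.15 when thinned and ran from -0.33 to 0.77. The cause was not tested. With the replicate block, Adamts18 between regions (5.02), Gsn in ASTRO (-3.37), Gsn in OLIGO (2.11) and the regions' difference for Adamts18, Thbs4, Gng2 and Tshr gained a call and no other call of the 5 genes changed; the 2 d tests carry the pairing of letter pJ in their genotype term. Where leaving out a replicate left 1 sum on a side, it was assumed to vary like the others. Leaving out the top cell or qNSC2 cells filtered Tshr out of the sort tests. Counts of 2 and 5 behind striatal Tshr, and 3 to 9 cells behind 3 WT qNSC2 sums, limit those values.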

Other observations

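Outside the vSVZ and ischemic striatum the 5 genes parted further. In the olfactory bulb (55 WT cells of pF, labelled as neuroblasts and neurons) Gng2 was at 160.0 CPM (95% Poisson interval 152 to 168) and Gsn at 29.7 (26.3 to 33.4). Thbs4 and Adamts18 had no count there (0 of 55 cells each, which allows up to 5.45% of cells with a count). In cortical astrocytes of WT TCF-Lef mice (pL, 32 cells) Gsn was at 133 CPM (123 to 144) with a count in 25 cells, and in striatal astrocytes of the same letter (33 cells) at 15.1 (11.96 to 18.7) with a count in 9. These are single sums of 1 letter, with no replicate check. The cortical cells had no count of Thbs4, Gng2 or Adamts18, and their Tshr (7.21 CPM) came mostly from 1 cell (85.7%).

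Active NSCs of the other mice held Thbs4 and Adamts18 unevenly. Naive TiCY aNSC (13 cells) had Thbs4 at 253 CPM (231 to 277), with 52.1% from 1 cell, and Adamts18 at 91.3 (78.0 to 106), with 83.3% from 1 cell. Naive KO aNSC (7 cells) had Adamts18 at 528 CPM (482 to 577), about as high as naive KO qNSC2 cells, with 84.2% from 1 cell. TiCY-KO neuroblasts at 2 d (76 cells) held no count of Thbs4, which allows up to 3.95% of cells with a count, and had Gng2 at 176 CPM (169 to 184) with a count in 69 cells.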
